A study of Mus musculus with 4 samples.

Results

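The miR-181 family was followed in small RNA sequencing of mouse aortas as 5 of the 1152 entries listed in each library, chosen by name. They are the 5p strands miR-181a-5p, miR-181b-5p, miR-181c-5p and miR-181d-5p, together with miR-181c-3p from the opposite arm of the miR-181c hairpin. All 5 had reads in all 4 libraries and a mean of at least 1 CPM (counts per 1000000 reads), the level an entry needed to be tested, and 479 of the 1152 entries reached it. The series asks how aortic microRNAs (miRNAs) differ in the vascular calcification that accompanies chronic kidney disease (CKD).

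The groups were CKD and Sham, with 2 libraries each, all from aortas of wild type C57BL/6 mice aged 12 weeks, and each library pooled 4 samples. The labelled model removes parts of the left kidney and, 1 week later, the whole right kidney, followed by 4 weeks on a 2% phosphate diet with 0.45% NaCl in the water. The labels word this treatment identically for CKD and Sham mice, so they do not tell how the Sham mice were handled. Library totals recovered from the CPM were 17532748 and 16658810 reads in CKD libraries, against 17520690 and 16878392 reads in Sham libraries. The smooth muscle miRNA miR-143-3p took 41.1% and 40.8% of reads in CKD libraries, against 79.8% and 72.5% in Sham libraries, and every CPM of another miRNA shares its library total with it.

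A miRNA is cut as a short duplex from a hairpin precursor, and one strand of the duplex is usually kept in Argonaute, where it represses messenger RNAs that pair with its seed, bases 2 to 8 from the 5′ end. The miR-181 family is known best in lymphocytes, where miR-181a sets the sensitivity of the T cell receptor by repressing phosphatases. In mouse endothelium miR-181b represses importin-α3, the carrier that brings NF-κB into the nucleus, and so restrains inflammatory signalling of the vessel wall. In the rat heart miR-181c acts inside mitochondria, and in human glioma miR-181d represses the DNA repair enzyme MGMT.

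All 10 listed miR-181 names had a mature sequence in RefSeq (GRCm38.p6), as did 900 of the 1079 listed miRNA names. The 4 5p members are shown because they carry the same seed, in capitals, and differ only downstream of it, so that they can pair with the same seed sites.
miR-181a-5p: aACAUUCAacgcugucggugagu
miR-181b-5p: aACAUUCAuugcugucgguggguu
miR-181c-5p: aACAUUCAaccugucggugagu
miR-181d-5p: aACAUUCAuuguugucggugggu
The seed ACAUUCA occurred in 4 of the 1679 mature mouse miRNAs in that table, which were these 4 members. miR-181a-5p and miR-181c-5p differed by 1 edit, a single base that miR-181c-5p lacks. miR-181b-5p and miR-181d-5p differed by the substitution C12U, counted from the 5′ end, and by 1 base of length. The sources used here do not say how reads that match several miRNAs were assigned, so the split of reads between such close members is uncertain.

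The opposite arms are shown because miR-181c-3p shares its seed, again in capitals, with one other arm of the family.
miR-181c-3p: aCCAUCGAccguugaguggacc
miR-181a-1-3p: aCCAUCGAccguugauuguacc
miR-181a-2-3p: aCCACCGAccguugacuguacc
The seed CCAUCGA was found in 2 mature mouse miRNAs, miR-181a-1-3p and miR-181c-3p, which differed by the substitutions U16G and U19G, with the miR-181a-1-3p base first. miR-181a-2-3p differed from miR-181a-1-3p inside the seed, at U5C, and again at U16C.

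The 6 hairpins of the family lie in 3 pairs on GRCm38, by the GENCODE M21 annotation. Mir181a-1 at chr1:137966455-137966541 and Mir181b-1 at chr1:137966639-137966718 are both on the plus strand, in an exon of the long noncoding RNA A430106G13Rik. Mir181a-2 at chr2:38852735-38852810 and Mir181b-2 at chr2:38853830-38853918, also on the plus strand, lie in an intron of Nr6a1, a nuclear receptor gene on the opposite strand. Mir181c at chr8:84178873-84178961 and Mir181d at chr8:84178716-84178787 lie on the minus strand in an intron of Nanos3, with 86 bases between them. miR-181a-5p and miR-181b-5p can each come from either of their hairpins, whereas miR-181c-5p and miR-181d-5p each have 1.

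On the deposited CPM scale the 4 5p members were higher in CKD aortas, and miR-181c-3p was not. miR-181a-5p, the most abundant member, had 2029 and 1916 CPM in CKD libraries, against 570 and 990 CPM in Sham libraries. miR-181b-5p had 422 and 414 CPM in CKD libraries, against 133 and 232 CPM in Sham libraries. The CKD libraries lay above both Sham libraries for these members, as they did for 91.2% of the 479 tested entries, and Sham 1 was the lowest library for each. miR-181c-5p had 150 and 129 CPM in CKD libraries, against 51.4 and 87.7 CPM in Sham libraries. miR-181d-5p had 54.6 and 56.9 CPM in CKD libraries, against 23.2 and 37.4 CPM in Sham libraries. These groups did not overlap either, while those of miR-181c-3p did: it had 5.48 and 3.90 CPM in CKD libraries, against 3.37 and 5.21 CPM in Sham libraries.

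The order of the members was the same in every library, with miR-181a-5p first, then miR-181b-5p, miR-181c-5p, miR-181d-5p and miR-181c-3p, and no neighbours in that order overlapped within a group. A read covers a whole mature miRNA of 22 to 24 bases here, so no scaling by length was made. Among all listed entries miR-181a-5p ranked 46 and 48 in CKD libraries and 47 and 45 in Sham libraries. Its place among the aortic miRNAs therefore moved by at most 3 ranks, although its CPM differed between the groups. miR-181b-5p ranked 71 and 68 in CKD libraries, against 69 and 64 in Sham libraries. The rarer members held lower places in CKD. More entries had reads there, 963 and 940 in CKD libraries against 730 and 795 in Sham libraries. Low places are therefore counted in lists of unlike length and are not directly comparable between the groups. miR-181c-5p ranked 115 and 121 in CKD libraries, against 100 and 93 in Sham libraries. For miR-181d-5p the ranks were 164 and 153, against 143 and 135, and for miR-181c-3p they were 349 and 378, against 278 and 274. miR-181c-3p rested on 96 and 65 reads in CKD libraries, against 59 and 88 reads in Sham libraries, with exact Poisson 95% intervals of 4.44 to 6.69 and 3.01 to 4.97 CPM in CKD, against 2.56 to 4.34 and 4.18 to 6.42 CPM in Sham. Intervals and floors cover counting error only, since no molecular identifiers are described.

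**Figure D1:**
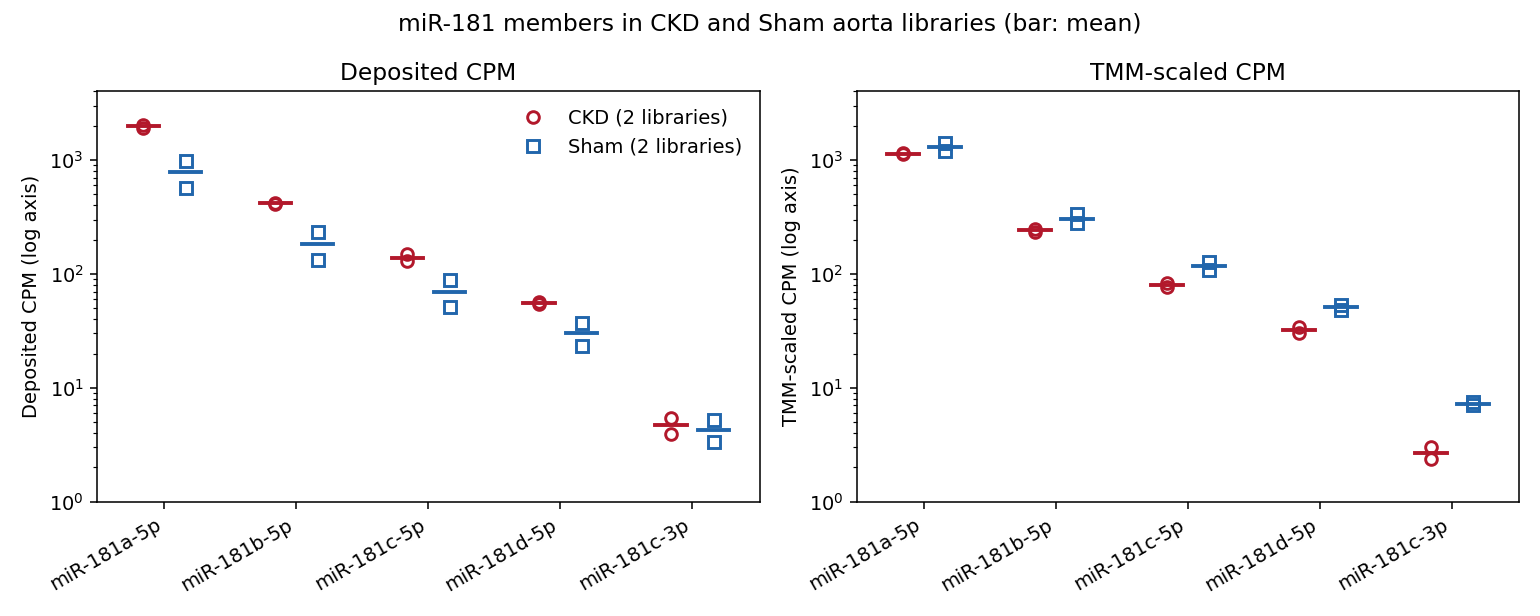
Deposited CPM (left) and CPM after TMM scaling (right), both on a log axis, for the 5 miR-181 members, with 1 point per library and a bar at each group mean, CKD left of Sham. The 4 5p members lie above Sham in CKD on the deposited scale, and all 5 lie below Sham in CKD after TMM scaling.

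In a limma fit over all 479 tested entries, 4 of the 5 members were called higher in CKD on the deposited scale at an adjusted p of at most 0.05, and none lower. Of all tested entries 83.9% were called on this scale, 82.9% higher and 1.04% lower in CKD, and the median entry had a log2 difference of 1.34, so the members' count is near the background. miR-181a-5p had a mean of 1973 ± 79.6 CPM in CKD and 780 ± 297 CPM in Sham (SD, n = 2 each), and its log2 difference was 1.39 ± 0.40 (SE; limma adjusted p 0.0081). The log2 difference was 1.24 for miR-181b-5p (SE 0.43, limma adjusted p 0.019) and 1.04 for miR-181c-5p (SE 0.42, limma adjusted p 0.037). It was 0.89 for miR-181d-5p (SE 0.38, limma adjusted p 0.045) and 0.11 for miR-181c-3p (SE 0.31, limma adjusted p 0.73). Set against the median of all entries, miR-181a-5p stood 0.05 above it on the log2 scale, while miR-181b-5p stood at -0.09, miR-181c-5p at -0.30, miR-181d-5p at -0.44 and miR-181c-3p at -1.22. Without CKD 1 or without CKD 2 none of the 5 members was called, although the log2 difference of miR-181a-5p was 1.35 without CKD 1 and 1.43 without CKD 2. Without Sham 1 only miR-181a-5p was called, at a log2 difference of 0.99, and without Sham 2 all 4 calls were kept, with miR-181a-5p at 1.79.

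TMM scaling removes the shift that most entries have in common, here with factors on the library size of 1.81 and 1.66 in CKD and of 0.479 and 0.696 in Sham. On this scale no 5p member passed the test, and miR-181c-3p fell. It had 3.03 and 2.35 TMM-scaled CPM in CKD libraries, against 7.04 and 7.49 in Sham libraries, with a log2 difference of -1.17 ± 0.17 (SE; adjusted p 0.033 in limma). The limma fit called 7.72% of all tested entries on this scale, 1.88% higher and 5.85% lower, and only 15 of the 479 entries had a lower difference than miR-181c-3p. The call was lost when any 1 of the 4 libraries was left out (limma adjusted p 0.12 to 0.19), while its log2 difference stayed between -1.0 and -1.27. With the quasi-likelihood test of edgeR, run on whole reads, the adjusted p was 0.054, and 6.47% of entries were called, whereas DESeq2 called miR-181c-3p lower (adjusted p 0.019). DESeq2 gave an adjusted p to 377 entries and called 20.4% of these 377, with 13% of the 377 lower in CKD.

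Among the 5p members the TMM-scaled values showed less difference the more abundant the member was. miR-181a-5p had 1122 and 1154 TMM-scaled CPM in CKD libraries, against 1190 and 1423 in Sham libraries, with a log2 difference of -0.19 ± 0.14 (SE; adjusted p 0.40 in limma). With library totals taken without miR-143-3p its log2 difference was 0.07, with the median entry at 0.25 on that scale. miR-181b-5p had 233 and 249 TMM-scaled CPM in CKD libraries, against 278 and 334 in Sham libraries, with a log2 difference of -0.34 ± 0.15 (SE; adjusted p 0.25 in limma). The CKD libraries lay below both Sham libraries for all 5 members on the TMM scale, which was also the case for 31.5% of all tested entries. miR-181c-5p had 82.8 and 77.5 TMM-scaled CPM in CKD libraries, against 107 and 126 in Sham libraries, with a log2 difference of -0.53 ± 0.14 (SE; adjusted p 0.10 in limma). miR-181d-5p had 30.2 and 34.2 TMM-scaled CPM in CKD libraries, against 48.5 and 53.7 in Sham libraries, with a log2 difference of -0.65 ± 0.14 (SE; adjusted p 0.068 in limma). Neither passed the limma or the edgeR test, while DESeq2, with 20.4% of its entries called, called both lower, with adjusted p of 0.014 for miR-181c-5p and 0.0097 for miR-181d-5p.

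**Figure D2:**
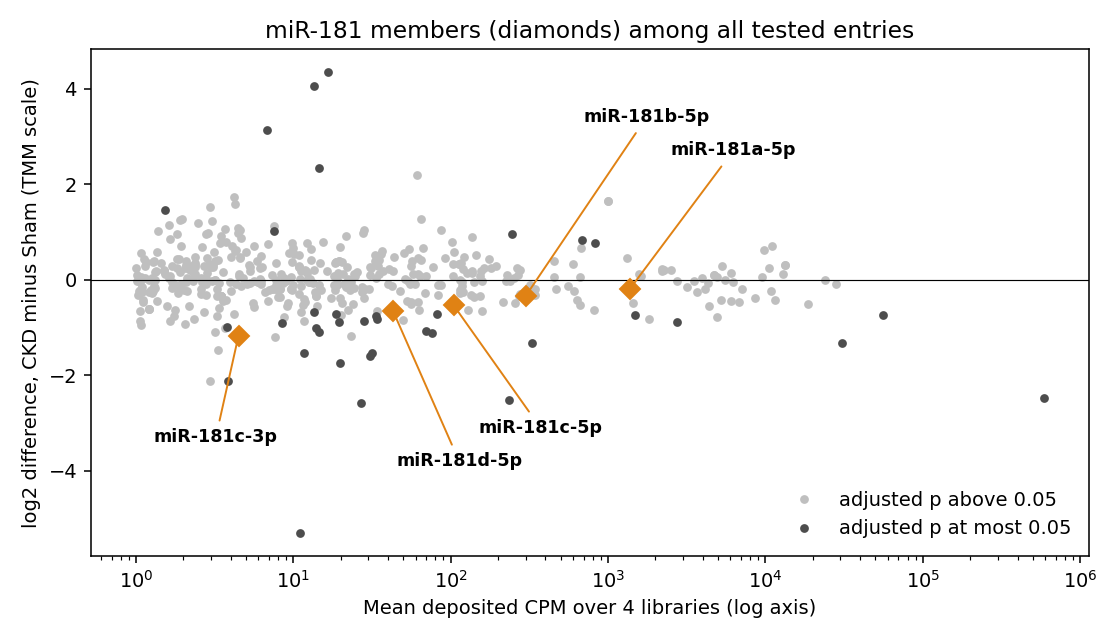
Log2 difference, CKD minus Sham, of TMM-scaled CPM against mean deposited CPM (log axis) for the 479 tested entries, with the 5 miR-181 members as diamonds and entries past an adjusted p of 0.05 in dark grey. The members lie between -0.19 for miR-181a-5p and -1.17 for miR-181c-3p.

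The composition of the family within a library does not depend on how libraries are scaled. The 4 5p members together made up 0.266% and 0.252% of reads in CKD libraries, against 0.0778% and 0.135% in Sham libraries. Of the reads other than miR-143-3p they made up 0.451% and 0.425% in CKD libraries, against 0.385% and 0.490% in Sham libraries, so these groups overlapped and both averaged 0.438%. miR-181a-5p supplied 76.4% and 76.2% of the 4 members' reads in CKD libraries, against 73.3% and 73.5% in Sham libraries, a difference of 2.92 percentage points. The Wilson 95% intervals ran from 75.8% to 76.8% over the CKD libraries and from 72.5% to 74.0% over the Sham libraries. Every CKD library had a larger miR-181a-5p share than every Sham library, by more than the spread within a group.

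The other 3 5p members each took a smaller share in CKD. miR-181b-5p took 15.9% and 16.5% in CKD libraries, against 17.1% and 17.3% in Sham libraries. miR-181c-5p took 5.64% and 5.11% in CKD libraries, against 6.61% and 6.51% in Sham libraries. miR-181d-5p took 2.06% and 2.26% in CKD libraries, against 2.99% and 2.77% in Sham libraries. The library values of these groups did not overlap. For miR-181b-5p the Wilson interval of CKD 2 was 16.1% to 16.81%. It overlapped those of Sham 1 (16.49% to 17.76%) and Sham 2 (16.77% to 17.75%), so these libraries were not separated beyond counting error. The intervals of miR-181c-5p and miR-181d-5p did not overlap between the groups. The pair encoded in Nanos3, miR-181c-5p with miR-181d-5p, together took 1.91 points less in CKD. It took 7.70% and 7.37% in CKD libraries, against 9.59% and 9.28% in Sham libraries. The exact permutation test over libraries, two-sided, gave p = 0.333 for each of the shares, the smallest p that 2 libraries against 2 allow. With the reads of miR-181c-5p added to those of miR-181a-5p, since the split between them is uncertain, the share was 82.1% and 81.3% in CKD libraries, against 79.9% and 80.0% in Sham libraries, a difference of 1.73 points.

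**Figure D3:**
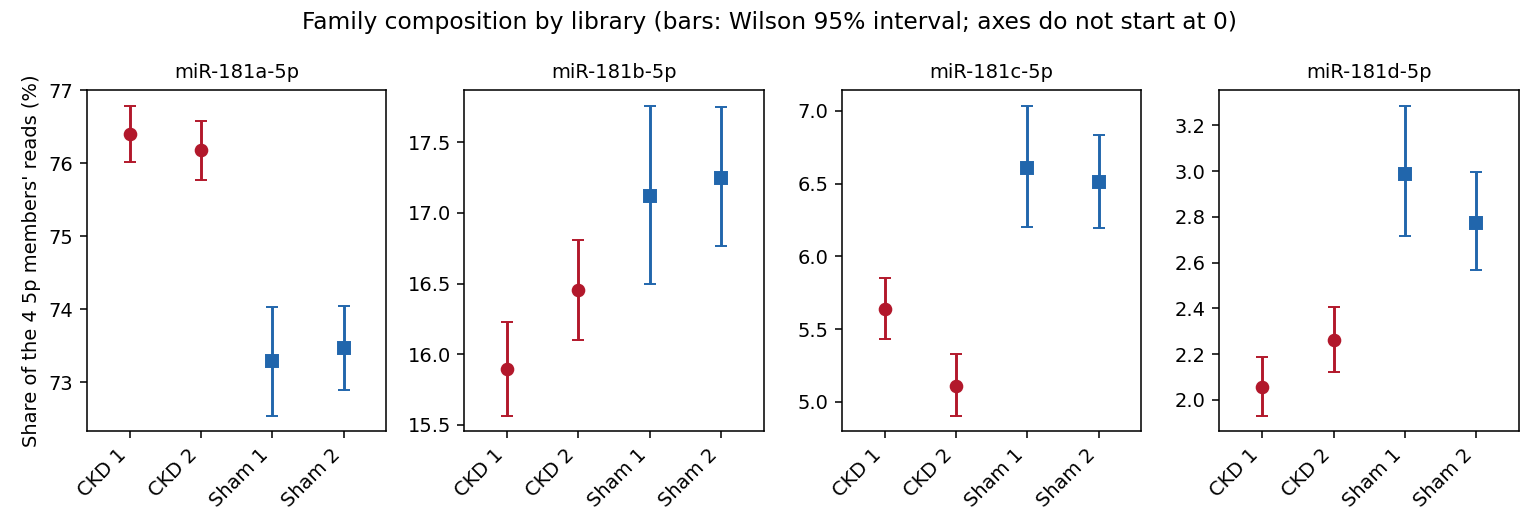
Percent of the reads of the 4 5p members that each member took, with 1 point per library, its Wilson 95% interval, and CKD left of Sham, on axes that do not start at 0. miR-181a-5p took 76.2% to 76.4% in CKD and 73.3% to 73.5% in Sham, and the other members took less in CKD than in Sham.

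The same reads can be given as reads of miR-181a-5p per read of another member. For the 5p members this restates the shares above and is not independent of them. There were 4.81 and 4.63 reads of miR-181a-5p per read of miR-181b-5p in CKD libraries, against 4.28 and 4.26 in Sham libraries. Per read of miR-181c-5p there were 13.5 and 14.9 in CKD libraries, against 11.1 and 11.3 in Sham libraries. Per read of miR-181d-5p there were 37.2 and 33.7 in CKD libraries, against 24.5 and 26.5 in Sham libraries, so the spread within a group was widest for the rarer members. Relative to miR-181a-5p in the same library, all 4 other members had lower values in each CKD library than in either Sham library, as had 17.6% of the 478 other tested entries.

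The arms of the miR-181c hairpin differed in their balance between CKD and Sham. There were 27.4 and 33.0 reads of miR-181c-5p per read of miR-181c-3p in CKD libraries, against 15.3 and 16.8 in Sham libraries. The 3p arm was 3.53% and 2.95% of the hairpin's mature reads in CKD libraries, against 6.15% and 5.61% in Sham libraries. The groups did not overlap, with the 5p to 3p ratio above Sham in both CKD libraries for miR-181c as for 34.6% of the 130 hairpins that had both arms tested. The Wilson 95% intervals were 2.90% to 4.29% and 2.32% to 3.74% in CKD, against 4.80% to 7.85% and 4.58% to 6.86% in Sham. For this 3p share the exact permutation test over libraries, two-sided, gave p = 0.333, the smallest that 2 libraries against 2 allow. In a limma fit of the 5p to 3p ratio over those 130 hairpins, the miR-181c ratio was 1.90-fold higher in CKD, with a log2 difference of 0.92 ± 0.21 (SE; adjusted p 0.031 in limma).

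Of the 130 hairpins 28.5% were called in that fit, 16.9% with a higher and 11.5% with a lower ratio in CKD, and the median hairpin had a log2 difference of -0.01. A larger positive difference than that of miR-181c was measured in 14 hairpins, and a larger difference in either direction in 21. The miR-181c call was lost without CKD 2 (limma adjusted p 0.063), without Sham 1 (0.18), without Sham 2 (0.080) and with a pseudocount of 0.1 CPM (0.054), and kept without CKD 1 (0.037). The log2 difference stayed between 0.80 and 1.05 when any 1 library was left out. The result uses the same miR-181c-3p reads as the TMM-scaled comparison and is not independent of it. The ratio may also depend on how reads that match several miRNAs were assigned, which is not stated. miR-181c-5p differs from miR-181a-5p by 1 edit, and miR-181c-3p differs from miR-181a-1-3p by 2.

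**Figure D4:**
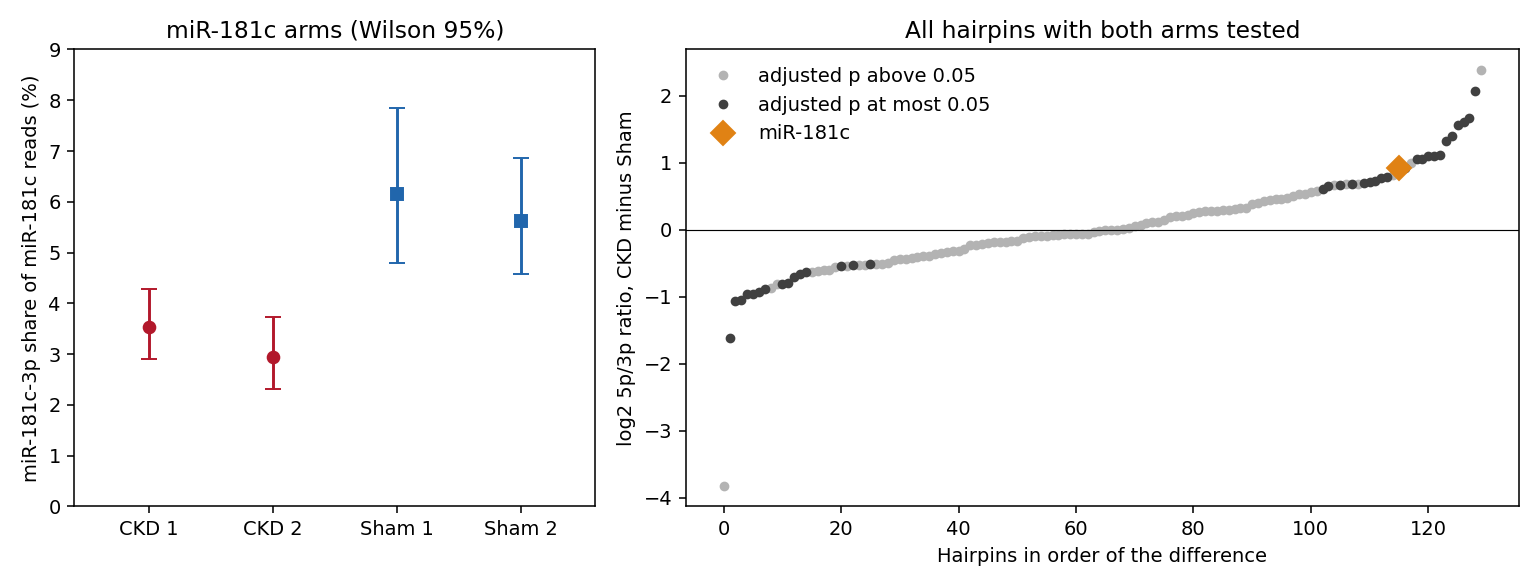
Left, 3p arm as a percent of the mature reads of the miR-181c hairpin, with 1 point per library, its Wilson 95% interval, and CKD left of Sham; right, the log2 difference of the 5p to 3p ratio, CKD minus Sham, for 130 hairpins in order of that difference, with those past an adjusted p of 0.05 in dark grey. The miR-181c share was 2.95% to 3.53% in CKD and 5.61% to 6.15% in Sham, and its ratio difference of 0.92, the diamond, has 14 hairpins above it.

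The remaining arms of the family were minor strands, and 2 of those 5 reached the level for testing. miR-181a-1-3p had 16.4 and 14.9 CPM in CKD libraries, against 4.45 and 11.2 CPM in Sham libraries. miR-181a-2-3p had 14.7 and 15.9 CPM in CKD libraries, against 5.65 and 7.17 CPM in Sham libraries. Both were called higher in CKD on the deposited scale (log2 differences 1.03 and 1.14, limma adjusted p 0.025 and 0.0048) and neither after TMM scaling (log2 differences -0.40 and -0.29, limma adjusted p 0.39 and 0.30). Before TMM scaling 82.9% of all entries were called higher, and both deposited-scale differences lay below the median entry's 1.34. miR-181b-1-3p and miR-181b-2-3p lay between 0.80 and 1.20 CPM in CKD libraries, against 0.06 to 0.71 CPM in Sham libraries. They rested on 1 to 21 reads per library, and for both the groups overlapped after TMM scaling. miR-181d-3p had 1 and 4 reads in CKD libraries, against 2 and 0 reads in Sham libraries. A floor of 3 reads, set here for a count of 0, corresponds to 0.171 to 0.180 CPM over the libraries. The exact Poisson 95% interval of the count of 0 in Sham 2 reached 0.219 CPM.

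The summed 3p arms of miR-181a were 1.51% and 1.58% of miR-181a reads in CKD libraries, against 1.74% and 1.82% in Sham libraries. This 3p share was lower in both CKD libraries, by less than for miR-181c. Unlike those of miR-181c, its Wilson intervals overlapped between the groups. They were 1.39% to 1.64% and 1.45% to 1.72% in CKD, against 1.51% to 2.02% and 1.63% to 2.03% in Sham. The 3p share of miR-181b was 0.471% and 0.491% in CKD libraries, against 0.214% and 0.558% in Sham libraries, and these groups overlapped. The exact permutation test over libraries, two-sided, gave p = 0.333 for the miR-181a share, the smallest it allows, and p = 1 for the miR-181b share. These hairpins were not in the limma fit of arm ratios, since their 3p arms share a 5p strand. Within miR-181a, the Mir181a-2 hairpin supplied 47.3% and 51.5% of the 3p reads in CKD libraries, against 55.9% and 39.0% in Sham libraries, with overlapping groups.

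The miR-23a cluster, whose hairpins begin 29557 bases from Mir181c on the opposite strand, had 5 of its 6 listed miRNAs tested. All 5 were called higher in CKD on the deposited scale and none after TMM scaling, with a median log2 difference of 1.84 and of 0.25, against 1.34 and about 0 for all entries, of which 82.9% were called higher on the deposited scale and 7.72% were called after TMM scaling. Both medians of the cluster are the values of miR-24-3p. Its name, unlike that of miR-24-2-5p, does not say which hairpin it came from. The medians of the 4 5p miR-181 members were 1.14 and -0.43. Also followed were 8 miRNAs that restrain or accompany endothelial activation and NF-κB signalling. All 8 were called higher on the deposited scale and none after TMM scaling, with medians of 1.50 and -0.08. That count is near the 82.9% of all entries, and after TMM scaling 4 of the 8 had a difference above 0 and 4 below.

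Since miR-181 is abundant in lymphocytes, the marker miRNAs of cell types that an aorta can hold are given beside it, and their calls are read against the 82.9% of all tested entries called higher on the deposited scale and the 1.88% higher and 5.85% lower after TMM scaling. The 6 leukocyte markers summed to 532 and 607 CPM in CKD libraries, against 114 and 287 CPM in Sham libraries, and 5 of the 6 were called higher on the deposited scale and none after TMM scaling (median TMM-scaled log2 difference -0.10). The 3 red cell markers summed to 1008 and 4754 CPM in CKD libraries, against 213 and 810 CPM in Sham libraries, with 3 called higher on the deposited scale and none after TMM scaling. The 2 endothelial markers, both strands of miR-126a, summed to 9989 and 9767 CPM in CKD libraries, against 2899 and 3411 CPM in Sham libraries, with 2 called higher on the deposited scale and none after TMM scaling. The 2 smooth muscle markers, miR-143-3p and miR-145a-5p, both fell on the TMM scale (log2 differences -2.48 and -0.73, limma adjusted p 0.012 and 0.044), and on the deposited scale miR-143-3p fell and miR-145a-5p rose. Of the 6 striated muscle markers 3 were tested, summing with the rest to 1204 and 973 CPM in CKD libraries, against 509 and 622 CPM in Sham libraries, with 1 called higher on the deposited scale and none after TMM scaling. Of the 5 neural markers 4 were tested and called higher on the deposited scale and none after TMM scaling, with sums of 155 and 190 CPM in CKD libraries, against 41.8 and 58.1 CPM in Sham libraries. No marker was at 0 in all 4 libraries, although the striated muscle marker miR-206-3p was at 0 in Sham 2. The part of these cell types in the miR-181 values was not tested, and in bulk tissue fewer cells of a type and less RNA per cell cannot be told apart.

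The miRNAs whose profile over the 4 libraries was most like each member's were found by Euclidean distance between log2(CPM + 1) values, each centred on its own mean, among 247 named candidates outside the family with a mean of at least 10 CPM. miR-31-3p was nearest both to miR-181a-5p (distance 0.10) and to miR-181b-5p (0.06), with 16.4 and 15.7 CPM in CKD libraries, against 4.34 and 8.06 CPM in Sham libraries. After it came miR-152-5p (0.12) and miR-3068-5p (0.15) for miR-181a-5p, and miR-541-5p and miR-148b-3p (0.12 each) for miR-181b-5p. miR-181c-5p and miR-181d-5p shared miR-301a-3p (0.13 and 0.17) and miR-434-3p (0.16 and 0.18) among their nearest 3. The third was miR-133a-5p (0.19) for miR-181c-5p and miR-145a-5p (0.14) for miR-181d-5p. miR-181c-3p lay farther from any candidate, with miR-140-3p at 0.24, miR-30c-2-3p at 0.27 and miR-381-3p at 0.34. It averaged 4.69 CPM in CKD and 4.29 CPM in Sham, below the 10 CPM asked of candidates. Entries of its own abundance were therefore not compared with it. These distances rest on 4 libraries that share their totals with miR-143-3p, and are a description.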

How the data were processed

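The authors deposited CPM values with 2 decimals for 1152 entries per library, which sum to about 1000000. The labels do not state the unit. Per the submitters' processing notes, Bowtie (no version) and GRCm38 were used, while counting and annotation are not stated. Of the 4 deposited files, 3 stack names over values in 1 column (unit other), and these were paired by position. Per the labels' protocols, RNA of 18 to 30 nt was cut from a gel, and a band for RNA of 22 to 30 nt was recovered after amplification. miR-181c-5p and miR-181c-3p, with 22 nt each, lie at its lower edge.

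Every value above 0 (100%) came out as whole reads, with a tolerance of 0.005 CPM, which gave the totals. limma 3.58.1 (R 4.3.3) with a mean-variance trend used log2(CPM + 1) of the 479 entries averaging at least 1 CPM, group as the only term, two-sided, with Benjamini-Hochberg adjustment over all of them. On this scale the change of low entries is understated. TMM factors came from edgeR 4.0.16. Its quasi-likelihood test on the recovered reads called 31 entries, and DESeq2 1.42.0 was an alternative. TMM assumes that most miRNAs did not change. Sums, shares and distances were computed in Python 3.11.15.

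Named miRNAs are the 5 members, the other miR-181 entries, the called members of the lists or their ranges, the 3 nearest profiles of each member, and miR-143-3p. miR-206-3p was singled out from the lists after its values were seen. Members and lists were chosen with earlier results of these data known. The labels do not say whether the pools of a group came from separate animals, so the p-values cover only the spread among these libraries, which may be technical. Libraries of a group differed by more than counting noise. No batch is given in the labels.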

Additional observations from a re-analysis of the deposited data

How the results depend on the processing

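Leaving out each library in turn gave 143 to 392 entries and 0 to 4 miR-181 members past the threshold on the deposited scale, 5 to 13 entries and 0 members on the TMM scale, and 15 to 30 hairpins in the arm ratio. The lone library of a group was then assumed to vary like the libraries of the other group. The miR-181c arm ratio difference was 0.80 to 1.05, and the difference in miR-181a-5p share 2.80 to 3.03 points. The log2 difference of miR-181c-3p on the deposited scale was -0.14 to 0.37, reversed to -0.09 without CKD 1 and to -0.14 without Sham 1. With library totals without miR-143-3p, 27 entries and 0 members were called, and the deposited-scale log2 difference was -0.077 for miR-181b-5p, -0.28 for miR-181c-5p, -0.40 for miR-181d-5p and -1.09 for miR-181c-3p, while that of miR-181a-5p was 0.067, the opposite sign to TMM scaling. edgeR with library totals alone, added after the data were seen, called 2 members. Without a filter, 0 members were called on either scale, with 313 entries on the deposited scale, 21 entries on the TMM scale and 64 hairpins. A mean CPM of at least 10 gave 241 entries on the deposited scale, 22 hairpins and 0 members on the TMM scale, since miR-181c-3p was then not tested. On the TMM scale edgeR called 0 members and 31 entries, and DESeq2 called 3 members and 77 entries. A pseudocount of 0.1 gave 16 hairpins and an arm ratio difference of 0.91 that missed the threshold, and a pseudocount of 10 gave 84 hairpins. The miR-181a-5p share differed by 1.73 points with miR-181c-5p added to it and by 3.13 with all miR-181 reads as the denominator.

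CKD and Sham libraries share the replicate numbers 1 and 2, but nothing in the labels says that a number pairs them. Deviations of same-numbered libraries from their group means correlated at 0.118 across entries, with only 2 pairs. With the replicate block 1 member and 352 entries were called on the deposited scale, 0 members and 10 entries on the TMM scale, and 63 hairpins. In that fit miR-181c-3p had a TMM-scaled adjusted p of 0.077 in limma. The miR-181c arm ratio kept its call (limma adjusted p 0.0019). Depth limits miR-181c-3p most, at 59 to 96 reads per library. The cause of the changes was not tested.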
